A study of Arabidopsis thaliana with 3 samples.

Results

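The ATG genes encode the core proteins of autophagy, and 10 of them were followed in the lateral nectaries of the nectarless mutant cwinv4-1 and of wild-type Arabidopsis thaliana. They were chosen by name, as the probe sets whose only gene symbol in the platform annotation starts with ATG or APG and a digit. The rule took 10 of the 14338 probe sets besides controls, 8037 of which carried 1 gene name, for 7936 loci. They cover all 9 ATG8 genes, ATG8A to ATG8I, and ATG3. The annotation calls AT4G21980 APG8A and AT3G15580 APG8H. RefSeq lists ATG8A and ATG8I among the other names of these loci, and those names are used here, so that ATG8H stands for AT3G06420.

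The cwinv4-1 group holds 2 samples of plants with the cwinv4-1 allele of the cell wall invertase gene CWINV4, and the wild-type group holds 1 sample. All plants were of the Columbia-0 ecotype and 30 to 35 days old. Nectaries were cut by hand from flowers of the secretory stage (14 to 15), and some 250 to 300 of them were pooled per sample. They were collected 4 to 8 h after dawn, and each pool was hybridised to a 1-colour Affymetrix array. The labels name 1 mutant allele, and the title of mutant replicate 1 reads cwinv4-1a, with the added letter unexplained. CWINV4 had no named probe set among those used and was not analysed here. The labels were therefore not checked against the mutated gene. Of the 6 nectary genes listed as a check of the tissue, 2 had a named probe set. SWEET9, the sucrose exporter of nectar secretion, had signals of 16300 and 38100 in cwinv4-1 and 19700 in wild-type. JMT, a jasmonate methyltransferase, had signals of 12400 and 2368 in cwinv4-1 and 11900 in wild-type.

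Autophagy carries cytoplasm and organelles into the vacuole for breakdown, inside vesicles with a double membrane called autophagosomes. ATG8 is a small ubiquitin-like protein that is joined to the lipid phosphatidylethanolamine in the growing membrane, where it also binds the receptors that select cargo. ATG4 proteases trim ATG8, ATG7 activates it, ATG3 transfers it to the lipid, and the complex of ATG5, ATG12 and ATG16 promotes that last step. Carbon starvation is a classical trigger of autophagy in plants, through the kinases SnRK1, which promotes it, and TOR, which represses it.

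The arrays were not alike, and mutant replicate 2 stood apart. Log2 differences over 10334 probe sets had an SD of 0.65 for mutant replicate 2 against 1, of 0.73 for replicate 2 against wild-type and of 0.44 for replicate 1 against wild-type. The share of probe sets without a signal was 13.2% and 20.7% on mutant replicates 1 and 2 and 13.1% in wild-type. Among control transcripts, the 3′ to 5′ signal ratio was highest on replicate 2 in 5 of 6 control pairs for actin, GAPDH and ubiquitin. Hybridisation controls are bacterial and phage transcripts mixed in before hybridisation. Their 18 probe sets had a median log2 difference from wild-type of -0.45 on replicate 1 and 0.74 on replicate 2. Median signals, each over the probe sets with a signal on that array, were 500.8 and 549.8 on the mutant arrays (12441 and 11365 probe sets) and 507.8 on the wild-type array (12455). With 1 wild-type array and 2 mutant arrays, precision is limited by their number throughout.

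All 10 ATG probe sets had a signal on all 3 arrays and passed the filter on dim probe sets, so each was tested. Their identifiers all end in a plain _at, without the suffix that Affymetrix gives to probe sets matching several transcripts. Cross-hybridisation between the related ATG8 transcripts was not tested. The signal of a probe set depends on its own probes, and levels are therefore compared between arrays and not between genes.

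**Figure D1:**
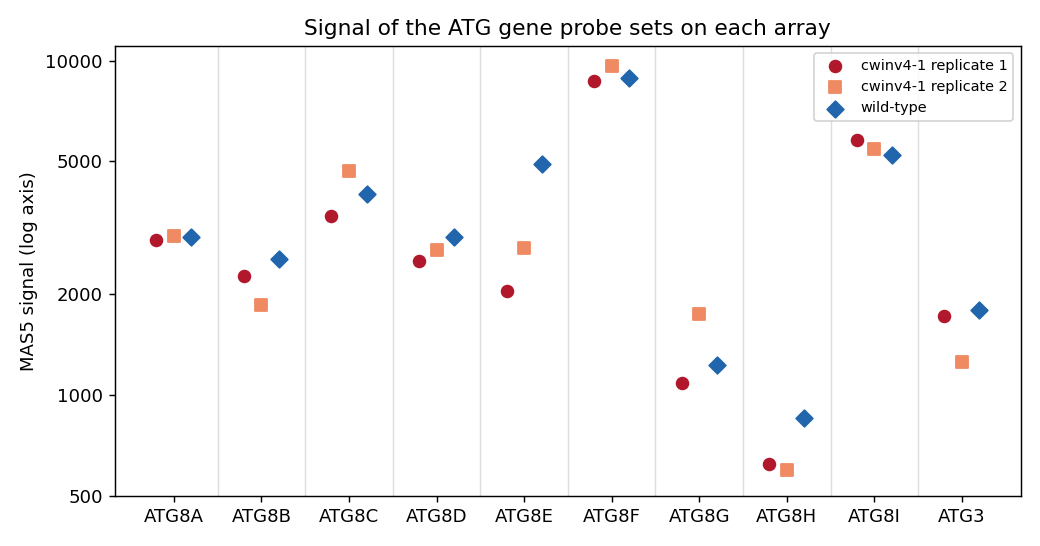
MAS5 signal (log axis) of the 10 ATG gene probe sets on each array, with 1 point per array: cwinv4-1 replicates 1 and 2, then wild-type. The ATG8E points lie at 2047 and 2747 in cwinv4-1 and at 4919 in wild-type, the widest gap between the groups in the plot.

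No ATG gene passed the test, and ATG8E was the one furthest from wild-type. The test was limma's moderated test on log2 signals, two-sided, and p-values of all 7750 tested probe sets were adjusted by the Benjamini-Hochberg method and called under 0.05. It called 33 of the 7750, or 0.426%, and 0 of the 10 ATG genes. At an unadjusted p under 0.05 it gave 503 probe sets, or 6.49%, and 1 ATG gene, ATG8E. These are bulk samples, in which fewer cells of a type and less RNA per cell cannot be told apart.

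ATG8E (AT2G45170) had signals of 2047 and 2747 in cwinv4-1 and 4919 in wild-type. Both mutant samples lay below the wild-type sample, and they differed from each other by less than either did from wild-type. On the log2 scale the difference from wild-type was -1.26 in replicate 1 and -0.84 in replicate 2, with a mean of -1.05 (SE 0.39, 95% interval -1.88 to -0.23), or 2.07-fold lower. The unadjusted p of limma was 0.0156 and the adjusted p 0.469, so the difference did not pass. By unadjusted p it ranked 258 of 7750. On both mutant arrays, 48 probe sets, or 0.619%, lay at least as far below wild-type as ATG8E. A mean log2 fold change as low or lower was found for 152, or 1.96%. Both counts include ATG8E itself. A difference between the mutant arrays as large as that of ATG8E, 0.42 on the log2 scale, was found for 37% of tested probe sets.

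The other 6 ATG8 genes from ATG8A to ATG8G had mean log2 fold changes from -0.31 to 0.17. On mutant replicate 1, where 51.3% of all tested probe sets were below wild-type, all 6 were below it. Their log2 differences there were small, from -0.24 to -0.03. On mutant replicate 2 these genes lay on both sides of wild-type. Like ATG8E, their products end in residues beyond the glycine that joins the lipid, and ATG4 must remove these first. ATG8A (AT4G21980) had signals of 2902 and 2999 in cwinv4-1 and 2977 in wild-type. The wild-type sample lay between the mutant samples, and its log2 fold change of -0.01 had a 95% interval of -0.82 to 0.79 and was above 0 after quantile normalization or median centring.

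ATG8B (AT4G04620) had signals of 2268 and 1865 in cwinv4-1 and 2553 in wild-type. Both mutant samples were below wild-type, replicate 2 more so, and the log2 fold change was -0.31 (95% interval -1.11 to 0.49). ATG8D (AT2G05630) had signals of 2522 and 2711 in cwinv4-1 and 2970 in wild-type. It too was below wild-type in both mutant samples, by 0.24 and 0.13 on the log2 scale.

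ATG8C (AT1G62040) had signals of 3434 and 4677 in cwinv4-1 and 4005 in wild-type. The mutant samples lay on either side of wild-type, with a mean log2 fold change of 0.00 (95% interval -0.85 to 0.85) that was -0.04 after quantile normalization. ATG8F (AT4G16520) had signals of 8688 and 9630 in cwinv4-1 and 8876 in wild-type, again on either side, with a mean of 0.04, which was -0.05 after quantile normalization. ATG8G (AT3G60640) had signals of 1086 and 1742 in cwinv4-1 and 1226 in wild-type. Its log2 differences from wild-type were -0.17 in replicate 1 and 0.51 in replicate 2, the widest gap between the mutant samples among the 10 ATG genes, and its mean of 0.17 had a 95% interval of -0.68 to 1.01.

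ATG8H and ATG8I form a separate branch of the family whose products end at the lipid-joining glycine and so need no trimming by ATG4. Their values lay on opposite sides of wild-type. ATG8H (AT3G06420) had signals of 623.7 and 597.2 in cwinv4-1 and 854.2 in wild-type. The mutant samples were close together and both below wild-type, with a log2 fold change of -0.48 (SE 0.39, 95% interval -1.31 to 0.34, limma adjusted p = 1). ATG8I (AT3G15580) had signals of 5774 and 5435 in cwinv4-1 and 5228 in wild-type. It was the one ATG gene above wild-type in both mutant samples, by 0.14 and 0.06 on the log2 scale, and its mean of 0.10 had a 95% interval of -0.76 to 0.96.

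ATG3 (AT5G61500), the enzyme that passes ATG8 to the lipid, had signals of 1727 and 1258 in cwinv4-1 and 1794 in wild-type. Replicate 1 lay near wild-type and replicate 2 below it, at log2 differences of -0.05 and -0.51. The mean was -0.28 (SE 0.38, 95% interval -1.10 to 0.53).

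**Figure D2:**
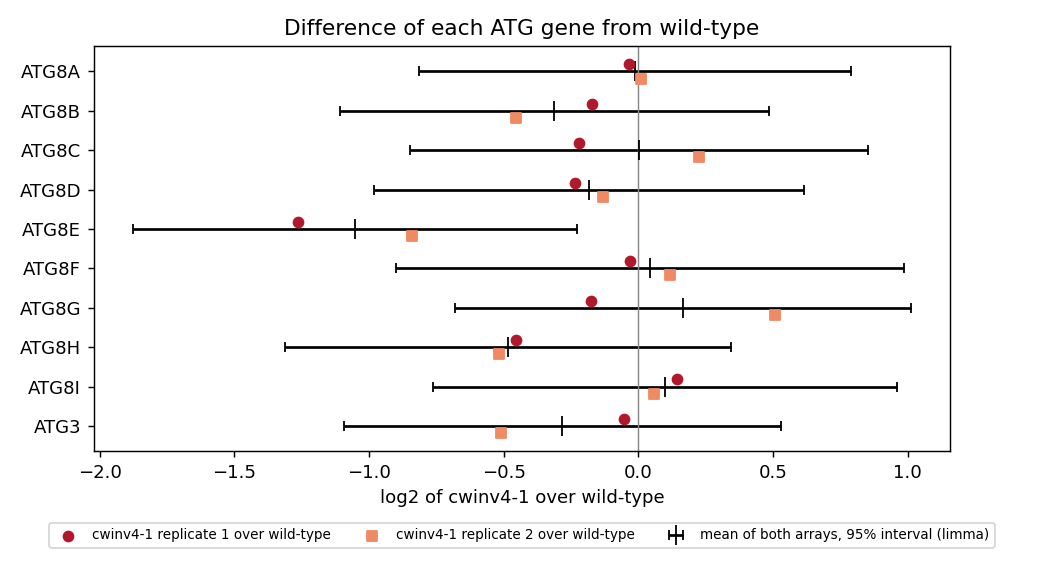
Log2 of cwinv4-1 over wild-type for each ATG gene, for mutant replicate 1 (circle), mutant replicate 2 (square) and their mean with limma's 95% interval (bar). The interval of ATG8E, -1.88 to -0.23, lies below 0, and the other 9 intervals hold 0.

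Counted together, 5 of the 10 ATG genes were below wild-type in both mutant samples (ATG3, ATG8B, ATG8D, ATG8E and ATG8H), 1 was above it in both and 4 lay on either side. Among all tested probe sets 37.2% were below in both, 30% above in both and 32.6% on either side. The wild-type array enters both ratios, and the 5 of 10 are read only against that background. The median log2 fold change of the 10 was -0.10, against -0.05 over all 7750 tested probe sets. Without ATG8E the other 8 ATG8 genes had a median of -0.01 and ran from -0.48 to 0.17. By array, the median was -0.17 for replicate 1 and 0.03 for replicate 2. ATG8E lay below these medians by 1.09 in replicate 1 and 0.87 in replicate 2, a difference that was not tested. The intervals of the 9 ATG genes other than ATG8E allow folds of cwinv4-1 over wild-type from 0.403 to 2.02. These intervals are not adjusted for the number of probe sets, and they do not mark the smallest change that the adjusted test could call.

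**Figure D3:**
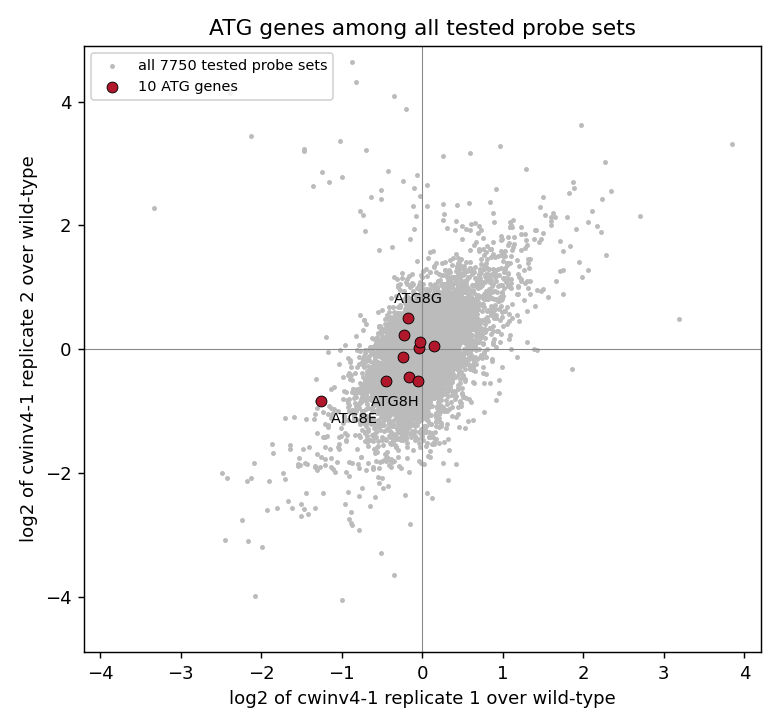
Log2 of mutant replicate 1 over wild-type (horizontal axis) against log2 of mutant replicate 2 over wild-type (vertical axis) for all 7750 tested probe sets in grey and the 10 ATG genes in red. Both axes share the wild-type array, which by itself makes the points slope upward. ATG8E lies at -1.26 and -0.84, where 48 probe sets, ATG8E among them, are as low or lower on both axes. The other 9 ATG genes lie within the main cloud.

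The rest of the autophagy pathway was thinly covered. Of 39 core autophagy loci written down from textbook knowledge, the 10 ATG genes included, 19 had a named probe set and 15 were tested. The other 20, among them ATG2, ATG5, ATG6, ATG7, ATG9 and the ATG18 genes, were not analysed here. By limma 0 of the 15 passed, and 1, ATG8E, had an unadjusted p under 0.05, as did 6.49% of all tested probe sets. Of the 15, 6 were below wild-type in both mutant samples, 3 above it in both and 6 on either side. The same shares of all tested probe sets were 37.2%, 30% and 32.6%. The median log2 fold change of the 15 was -0.01. On replicate 1 alone 12 were below and 3 above wild-type, and on replicate 2 alone 6 were below and 9 above. Over all tested probe sets 51.3% were below and 48.6% above wild-type on replicate 1, and 55.8% were below and 44.1% above on replicate 2.

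The 5 tested core loci beyond the ATG genes named by the rule lay near wild-type. ATG101 (AT5G66930), a subunit of the kinase complex that starts autophagosome formation, had signals of 943.7 and 990.9 in cwinv4-1 and 910.2 in wild-type, with a log2 fold change of 0.09 (95% interval -0.72 to 0.89). The other 4 are named here only by locus code. AT5G50230 was below wild-type in both mutant samples, at log2 differences of -0.21 and -0.45, and AT2G37840 was above it in both, at 0.43 and 0.13. AT3G61960, at -0.29 and 0.05, and AT3G59950, at -0.05 and 0.29, lay on either side.

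A further 4 core loci were measured but not tested, because of a dim signal or a missing one. AT3G53930 had signals of 299.2 and 234.3 in cwinv4-1 and 390.9 in wild-type, both mutant samples below wild-type. The brighter probe set of AT1G77890 had 246.4 and 355.8 in cwinv4-1 and 326.1 in wild-type. AT1G49180 had no signal in mutant replicate 2, with 169.9 in replicate 1 and 197.6 in wild-type, and AT3G18770 had a signal of 164.8 in wild-type alone.

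None of the tested regulators of autophagy passed limma's test, and 0 had an unadjusted p under 0.05. Of 17 listed regulators and receptors, 6 had a named probe set and 5 were tested, with 1 below wild-type in both mutant samples and 4 on either side. Over all tested probe sets 6.49% had an unadjusted p under 0.05, 37.2% were below in both and 32.6% on either side. The regulator below in both was AKINBETA1, a subunit of SnRK1, with signals of 797.8 and 715.5 in cwinv4-1 and 973.3 in wild-type. The locus AT4G16360, which RefSeq lists also as KINbeta2, had signals of 4242 and 5602 in cwinv4-1 and 4280 in wild-type. RAPTOR1, the partner of TOR, had 496.9 and 317.3 in cwinv4-1 and 411.1 in wild-type, on either side. RAPTOR2, its close relative, had a signal of 168.7 in mutant replicate 1 alone and was not tested. AT4G34660 was at log2 differences of -0.09 and 0.58 and AT2G32760 at -0.05 and 0.22.

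Vacuolar proteases, which degrade what autophagosomes deliver, were represented by 3 tested genes of 9 listed, and DELTA-VPE had a probe set without a signal on any array. None passed, and 1, BETA-VPE, had an unadjusted p under 0.05. The share of all tested probe sets with such a p was 6.49%, and 30% were above wild-type in both mutant samples. BETA-VPE, a vacuolar processing enzyme known for cutting seed storage proteins, had signals of 627.3 and 643.2 in cwinv4-1 and 276.3 in wild-type. The mutant samples were close together and both above wild-type, and the log2 fold change was 1.20 (SE 0.40, 95% interval 0.36 to 2.05, limma adjusted p = 0.35), so it did not pass. GAMMA-VPE, the related enzyme of vegetative tissue, had signals of 3450 and 2061 in cwinv4-1 and 3173 in wild-type, on either side. AT4G01610 had 5238 and 5122 in cwinv4-1 and 4177 in wild-type, a log2 fold change of 0.31. None of the 6 listed vacuolar SNAREs, the proteins of membrane fusion, had a named probe set.

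Of 10 genes known to be induced by sugar starvation, 3 were tested and none passed limma's test. An unadjusted p under 0.05 was found for 1, MCCA, and for 6.49% of all tested probe sets. MCCA and MCCB, the subunits of the methylcrotonyl-CoA carboxylase of leucine breakdown, were both below wild-type in both mutant samples, where 37.2% of all tested probe sets were. MCCA had signals of 1077 and 1159 in cwinv4-1 and 2025 in wild-type (log2 fold change -0.86, 95% interval -1.65 to -0.07, limma adjusted p = 0.679). MCCB had 918.6 and 846.5 in cwinv4-1 and 1258 in wild-type, a log2 fold change of -0.51 (95% interval -1.32 to 0.29). IVD, an earlier enzyme of the same pathway, had 877.4 and 660.4 in cwinv4-1 and 745.3 in wild-type, on either side of it.

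**Figure D4:**
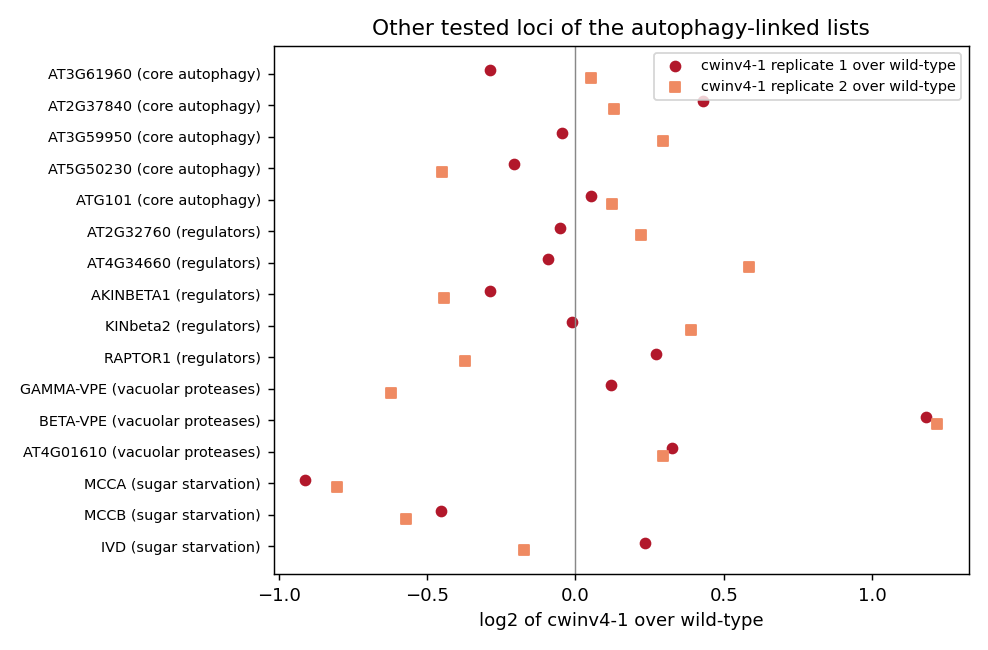
Log2 of cwinv4-1 over wild-type in mutant replicate 1 (circle) and mutant replicate 2 (square) for the tested loci of the autophagy, regulator, vacuolar protease and sugar starvation lists other than the 10 ATG genes. BETA-VPE lies furthest right, at 1.18 and 1.22, and MCCA furthest left by its mean, at -0.91 and -0.81.

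The genes whose values were most like those of ATG8E are known here only by locus code. Likeness was the distance between pairs of log2 differences from wild-type over the 2 mutant arrays, taken for 4018 tested probe sets with 1 gene name. The nearest was AT1G26920, at log2 differences of -1.24 and -1.01 and a distance of 0.17. It was followed by AT2G03430 at a distance of 0.21, AT5G52810 at 0.22, AT1G69860 at 0.24, AT3G62260 at 0.27 and AT3G19240 at 0.29. Within a distance of 0.25 there were 4. A likeness over 3 arrays is only a description. AT5G52810 had signals of 2351 and 2871 in cwinv4-1 and 5923 in wild-type.

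Markers of neighbouring tissues were looked up as well. Of 13 listed for pollen, carpel, petal and stamen, and leaf photosynthesis, 5 had a named probe set. All 5 were below wild-type in both mutant samples, where 37.2% of all tested probe sets were, and none was at 0. The pollen gene AT3G07820 had signals of 569.1 and 128.2 in cwinv4-1 and 658 in wild-type, and the second pollen gene listed, AT5G45880, had 614.1 and 634.8 in cwinv4-1 and 674.3 in wild-type. Their summed signal was 1183 and 763 in cwinv4-1 and 1332 in wild-type. The carpel regulator SPT had 767.7 and 390.9 in cwinv4-1 and 877.3 in wild-type. AT3G07820 and SPT were lowest on replicate 2, at log2 differences from wild-type of -2.36 and -1.17, while AT5G45880 lay near wild-type on both mutant arrays. Of the leaf genes, LHCB4.1, a protein of the light-harvesting antenna, had 7140 and 5208 in cwinv4-1 and 8107 in wild-type. RCA, the activase of the carbon-fixing enzyme Rubisco, had 10100 and 9857 in cwinv4-1 and 11200 in wild-type. The leaf genes summed to 17240 and 15065 in cwinv4-1 and 19307 in wild-type. Such sums add probe sets of unlike brightness and follow the brightest. The part of these tissues in the values of the ATG genes was not tested.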

How the data were processed

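The authors deposited 1 linear signal intensity per probe set and array, computed with MAS5 per the submitters' processing notes (version and target level not given in the sources used here). Per the series' design text, further wild-type nectary arrays entered the normalization. Missing cells stayed missing. Names came from GEO's platform annotation. By gene number, 8000 of the 8037 probe sets with 1 gene name matched a RefSeq locus of assembly TAIR10.1, and 335 with several names were given none.

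Intensities were taken as log2, without renormalizing. A signal was required on all 3 arrays (10334 probe sets) and a mean log2 signal in the upper part of these, from the 25th percentile up, which left 7750. They were fitted with limma 3.58.1 (lmFit, then eBayes with trend) under R 4.3.3. Only the cwinv4-1 arrays give a residual degree of freedom, 1 in all, and the same spread is assumed for wild-type. The prior spread that limma estimates over all tested probe sets has 15.38 degrees of freedom. Each SE, interval and p-value therefore rests mostly on that shared spread and little on the gene's own replicates. The design text calls the samples biological replicates. Each listed locus counted once, by its brightest probe set. The fit was also run on simulated data. These were drawn with the spread that limma had fitted, alike in both groups, and so could not check that spread. The genes named are the ATG genes, the measured loci of the lists and the 6 probe sets nearest to ATG8E. Members and lists were chosen with earlier results of these data known. Alternatives were other normalizations, treatments of low signals, filters and variance priors, and each mutant array alone.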

Additional observations from a re-analysis of the deposited data

How the results depend on the processing

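ATG8E stayed below wild-type under all 8 other settings of the normalization, low signals, filter and variance prior. Its log2 fold change ran from -1.06 to -0.99, its unadjusted limma p from 0.0073 to 0.0296 and its adjusted p from 0.194 to 0.862, so it passed under none of them. With 1 mutant array left out, its log2 difference is simply that of the other array, -1.26 or -0.84, as given above. Of 80 log2 fold changes of the 10 ATG genes under these settings, 76 kept their direction and side of the threshold and 4 turned direction. Setting low signals to a floor, changing the filter and changing the variance prior left each of these log2 fold changes as it was. A direction could turn only under quantile normalization, median centring or a constant added to all signals. ATG8A, at -0.01, was at 0.00524 after quantile normalization and 0.0338 after median centring. ATG8C, at 0.00, was at -0.0373 and ATG8F, at 0.04, was at -0.0542 after quantile normalization. The number of ATG genes passing was 0 throughout. The count of all probe sets passing was 33. It was 0 after quantile normalization (398 at an unadjusted p under 0.05), 0 after median centring (399), 126 with no filter and 90 with a filter at the 50th percentile; the cause was not tested. Of the 15 core loci, 6 were below wild-type on both mutant arrays and 3 above, where 37.2% and 30% of all tested probe sets were. On replicate 1 alone 12 were below and 3 above, and on replicate 2 alone 6 were below and 9 above. After quantile normalization 7 of the 15 were below on both arrays and 3 above. With no filter 17 core loci were tested, 7 below and 3 above. A filter at the 50th percentile left 14, with 6 below and 2 above. No paired analysis was possible with 1 wild-type array, and the sample labels used here name no pairs. Signal over background limits dim loci, and no background values were used here.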
